A study of Phyllostachys edulis with 34 samples.

Results

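The expression of 16 genes of moso bamboo (Phyllostachys edulis) was examined, chosen because their transcripts stood above the untreated control in young leaves after 3 h of PEG, NaCl, SA and ABA, and no longer clearly did so after 24 h of PEG, NaCl and SA. They are 16 of the 59091 genes in the deposited tables. They were chosen by group means of FPKM, a number of sequenced fragments scaled to transcript length and library size. For each treatment and hour a relative level was computed, the log2 of the mean FPKM plus 1 of the treated group over the mean FPKM plus 1 of the control group (CK) of the same hour. A gene was kept when its relative level was at least 1.5 in all 4 treatments at 3 h and under 0.5 in PEG, NaCl and SA at 24 h. The libraries labelled ABA 24 h and 0 h took no part in the choice. Of 170 genes that met the 3 h criterion, 102 were under the 24 h limit in PEG, 24 in NaCl and 41 in SA, and only 16 were under it in all 3. A set of 152 genes that met only the 3 h criterion, without the genes that the study had listed itself, serves below as a comparison. Just inside the 3 h limit stood PH02Gene03360, with a lowest relative level of 1.51, and just outside it PH02Gene24535 with 1.499. Nearest the 24 h limit, Phyllostachys_edulis_newGene_202 reached 0.40 and PH02Gene27187, which was not kept, 0.61.

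The study sampled young leaves of 30-day-old seedlings. The groups were PEG (25%), NaCl (200 mM), SA (salicylic acid, 1 mM) and ABA (abscisic acid, 1 µM), each at 3 h and 24 h with 3 libraries, CK at 3 h and 24 h with 3 libraries each, and 0 h with 4 libraries, 34 libraries in 11 groups. CK is taken as the untreated control, which the labels do not spell out. Libraries held 28153302 to 51695158 counts with a median of 33238237, so that a count of 0 allowed up to 3 counts, or 0.058 to 0.107 CPM (counts scaled to library size). This limit covers counting error only. The study describes 3 biological replicates, but nothing in the labels says which libraries share a seedling. The p-values therefore measure the spread between libraries.

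The libraries labelled 0 h did not form a uniform group. Over 16877 expressed genes, 0 h replicate 1 had Spearman correlations of 0.713 to 0.715 with the other 0 h libraries and of 0.964 to 0.973 with the libraries labelled ABA 24 h. The other 0 h libraries had correlations of 0.987 to 0.988 with each other, 0.927 to 0.932 with PEG 24 h and 0.707 to 0.725 with ABA 24 h. The labels were kept as deposited. Numbers of members called that rest on 0 h or ABA 24 h are also given with the libraries concerned left out or replaced. The relative levels of ABA 24 h, its change from ABA 3 h and the overlaps of libraries rest on the deposited labels only. Whether labels were exchanged between 0 h and ABA 24 h was not tested. If they were, the direction of each difference between ABA 24 h and 0 h would turn. The members were chosen without these libraries.

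Polyethylene glycol (PEG) draws water from plant cells by osmosis, and NaCl adds ion stress to the osmotic one. ABA is the hormone through which plants signal water deficit, closing stomata and switching on protective genes, and SA is the hormone best known from defence against biotrophic pathogens. Plants commonly answer such signals with early transcripts that appear quickly and later decline, many of them for regulators of other genes. The deposited tables pair the IDs with no gene names or functions, and no member is among the genes the study annotated. The role of each member is therefore not given here. Of the 16, 13 have IDs of the reference gene set and 3 are new gene models, whose IDs contain newGene, out of 8155 such models in the table.

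At 3 h the members were low in CK and higher in all 4 treated groups, most so in SA and PEG and least in ABA. The median over the 16 members of the group mean was 48.6 FPKM in PEG, 19.1 in NaCl, 49.999 in SA and 12.3 in ABA, against 1.85 FPKM in CK 3 h. The relative level had a median of 3.12 in PEG (range 1.78 to 5.67), 2.83 in NaCl (1.56 to 5.28), 3.87 in SA (2.25 to 6.497) and 1.88 in ABA (1.51 to 3.39). For the 32792 genes with a group mean of at least 1 FPKM, the median relative level at 3 h was -0.32 in PEG, -0.05 in NaCl, -0.30 in SA and -0.11 in ABA. In each of the 16 members every treated library lay above every CK 3 h library in all 4 treatments, which was the case in 19.7% of the expressed genes for PEG, 30.9% for NaCl, 23.2% for SA and 21.2% for ABA. In edgeR's quasi-likelihood test all 16 were called higher in each treatment, beside 12.5%, 10.1%, 13.7% and 9.46% of all genes tested for PEG, NaCl, SA and ABA. These contrasts chose the members, so nothing is read from the counts. In whole leaves, more RNA per cell and more cells of an expressing type cannot be told apart.

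**Figure D1:**
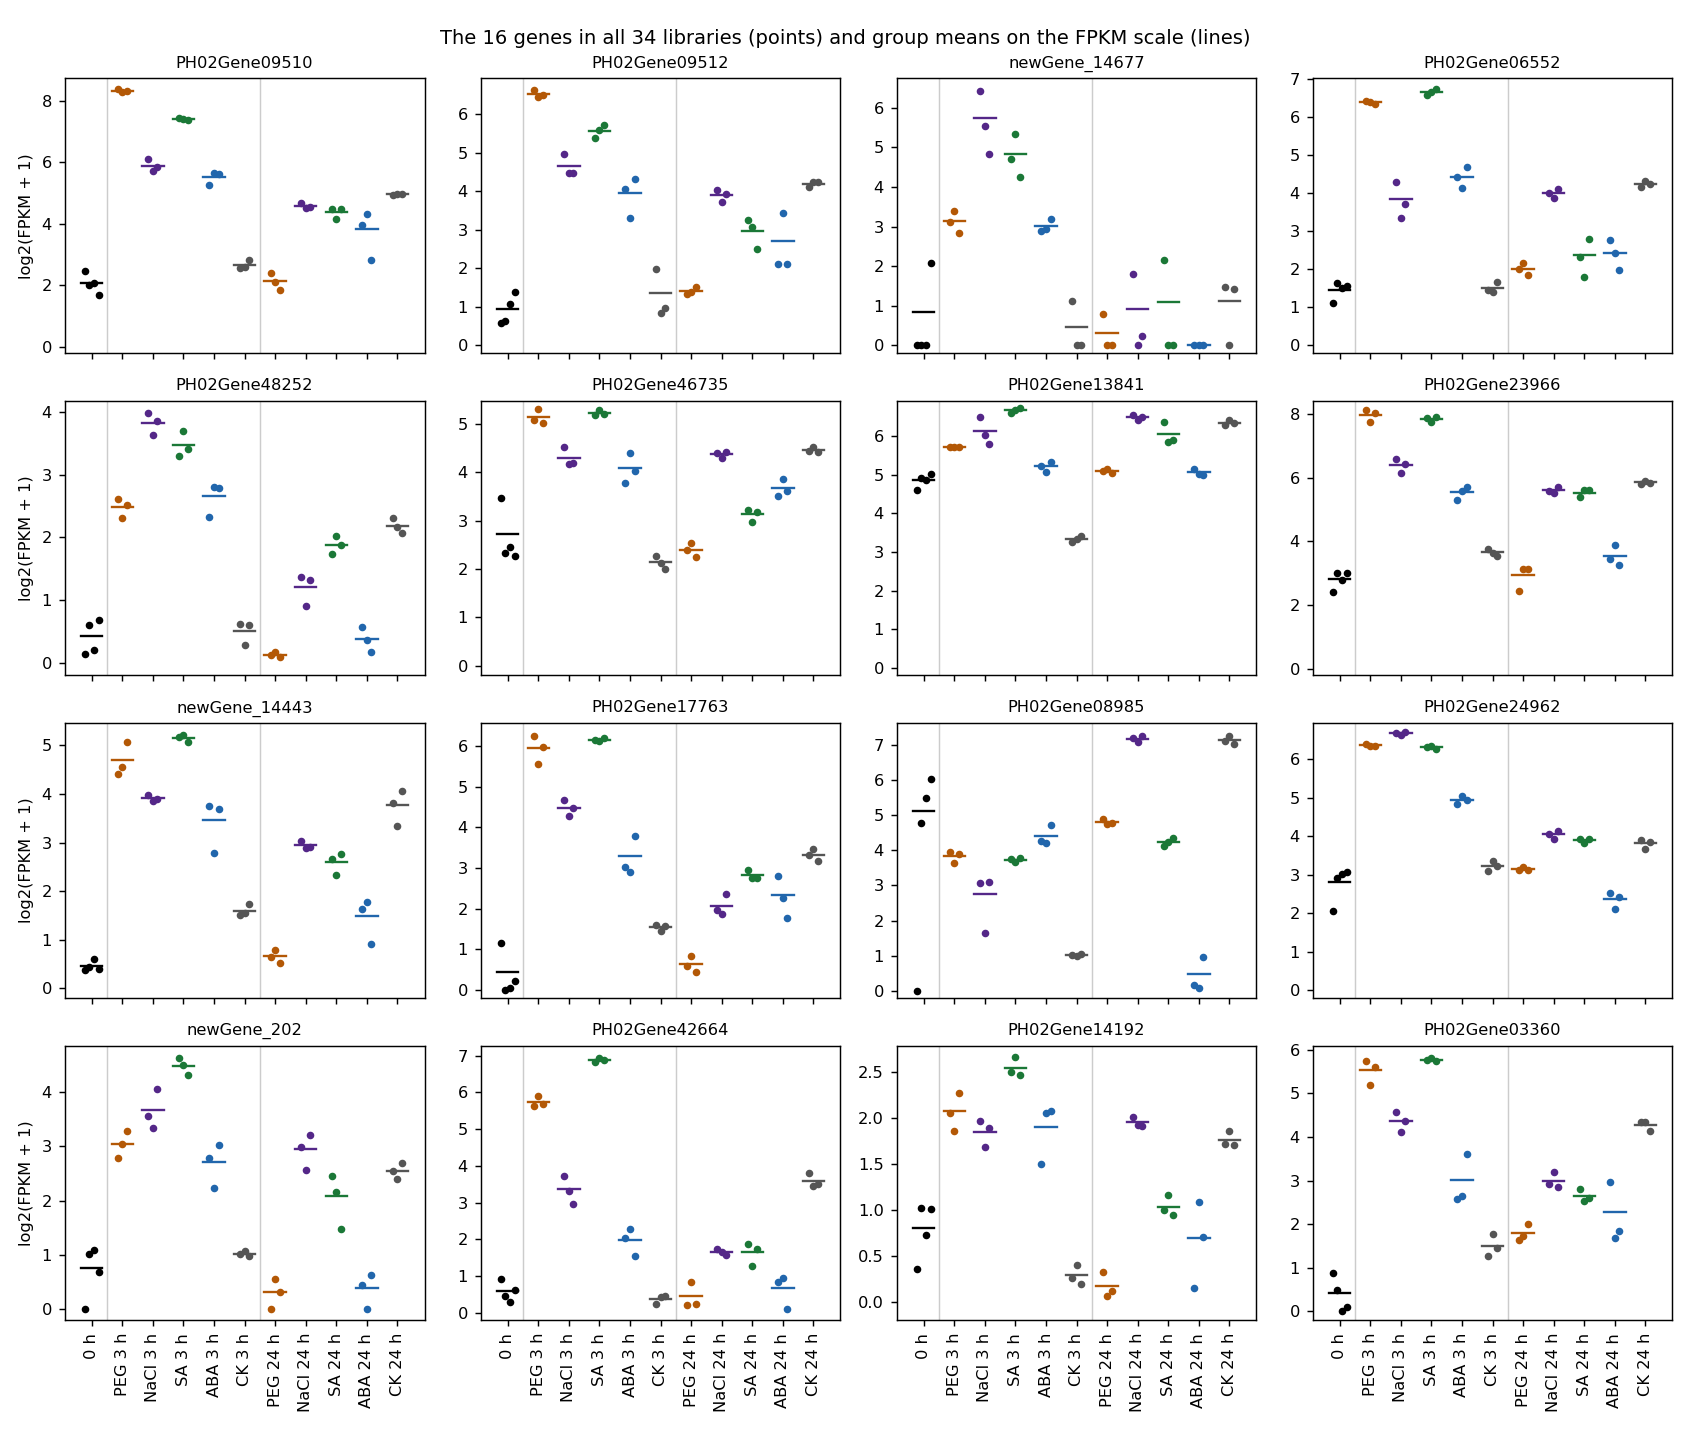
FPKM of each of the 16 members in each of the 34 libraries as log2 of FPKM plus 1 (1 panel per gene, points are libraries, lines are group means), with 0 h first, then PEG, NaCl, SA, ABA and CK at 3 h, then the same groups at 24 h. In every panel the treated libraries of 3 h lie above those of CK 3 h, and in 15 of 16 panels the CK 24 h libraries lie above those of CK 3 h without overlap.

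PH02Gene09510 had the highest of the lowest relative levels at 3 h (2.85). Its FPKM was 336, 313 and 319 in PEG 3 h, 68.2, 51.6 and 56.3 in NaCl 3 h, 172, 168 and 167 in SA 3 h, with 37.3, 49.4 and 48.1 in ABA 3 h, against 4.99, 5.06 and 6.06 in CK 3 h. No treated library came near a control library, and PEG 3 h stood above the other treatments. At 24 h the same gene had 4.32, 3.32 and 2.61 FPKM in PEG, 24.5, 22.03 and 22.6 in NaCl, 21.3, 16.7 and 21.6 in SA, and 14.7, 18.96 and 6.14 in ABA, against 29.96, 30.5 and 30.2 in CK. All treated libraries were then below all CK 24 h libraries, and the CK libraries had themselves gone up. The ratio of the means of PEG 3 h and CK 3 h was 60.1, and that of PEG 24 h and CK 24 h was 0.113.

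PH02Gene09512 came next by the lowest relative level (2.59). It had 97.3, 86.3 and 88.9 FPKM in PEG 3 h, 30.4, 20.98 and 21.2 in NaCl 3 h, 40.7, 47.2 and 51.2 in SA 3 h, with 15.6, 8.78 and 18.9 in ABA 3 h, against 2.94, 0.793 and 0.954 in CK 3 h. At 24 h it had 1.501, 1.61 and 1.85 FPKM in PEG, 15.3, 12.1 and 14.2 in NaCl, 8.53, 7.39 and 4.61 in SA, and 3.32, 9.77 and 3.30 in ABA, against 16.2, 17.7 and 17.9 in CK. The order of the groups was like that of PH02Gene09510. The ID numbers of these genes differ by 2, the closest pair among the members, and PH02Gene09511, whose number lies between them, was near 0 in the 11 groups (at most 0.0250 FPKM, in SA 3 h). The handling of reads shared by similar genes is not stated in the sources used here, and the values of this pair may not be separate measurements.

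PH02Gene23966 had the highest mean over the treated libraries of 3 h, 151 FPKM. It reached 278, 211 and 259 FPKM in PEG 3 h, 94.6, 69.9 and 84.9 in NaCl 3 h, 232, 212 and 240.0 in SA 3 h, with 38.3, 46.9 and 50.9 in ABA 3 h, against 12.7, 11.6 and 10.6 in CK 3 h. At 24 h it had 4.50, 7.85 and 7.89 FPKM in PEG, 46.5, 45.3 and 51.0 in NaCl, 40.6, 47.8 and 47.5 in SA, and 9.84, 13.8 and 8.57 in ABA, against 55.0, 59.1 and 56.1 in CK. In NaCl and SA this gene was thus under its CK at 24 h while its means of 47.6 FPKM in NaCl 24 h and 45.3 FPKM in SA 24 h stayed above the 11.6 FPKM of CK 3 h.

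At 24 h most members were under the level in CK, the rule having required a relative level under 0.5 in PEG, NaCl and SA. In NaCl 24 h, 5 members had a mean above that of CK 24 h. The median of the group means was 2.07 FPKM in PEG, 10.4 in NaCl, 5.69 in SA and 3.96 in ABA, against 15.2 FPKM in CK 24 h. The relative level had a median of -2.28 in PEG (-3.14 to -0.67), -0.25 in NaCl (-1.94 to 0.40), -0.65 in SA (-2.90 to 0.08) and -1.65 in ABA (-6.67 to -0.80). In edgeR's test 14 members were called lower in PEG, 5 in NaCl and 8 in SA, beside 8.36%, 14.6% and 10.9% of all genes tested. Called higher were 0 in each, beside 6.18%, 13.7% and 8.39%. The unadjusted p was under 0.05 for 15, 5 and 11 members lower and for 0, 1 and 0 higher. The rule used these contrasts, and the counts are given as a description.

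**Figure D2:**
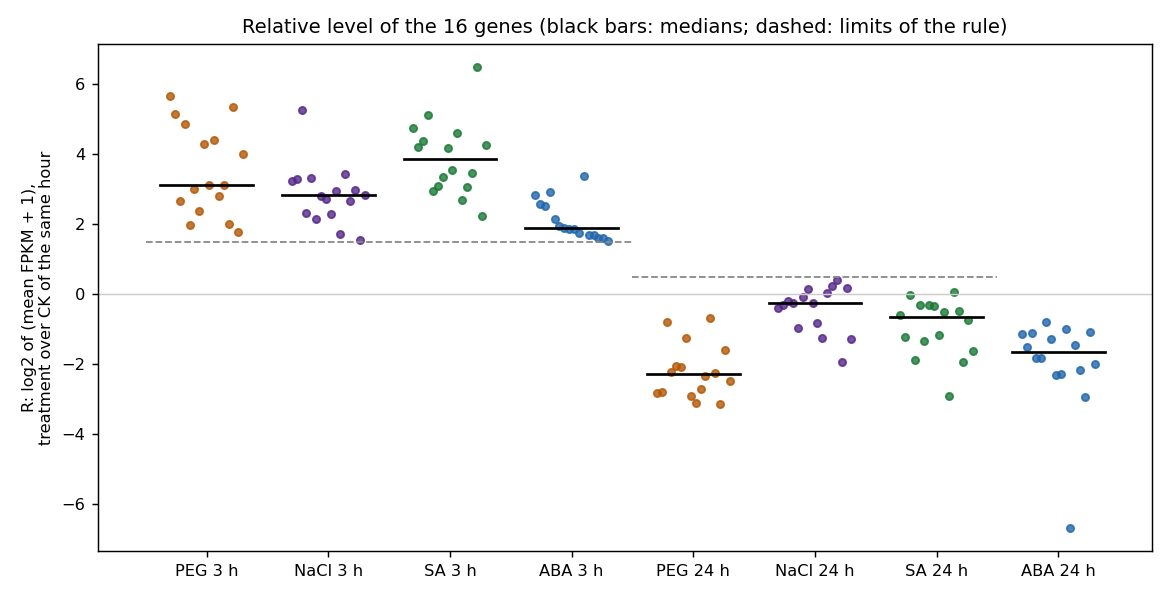
Relative level (log2 of mean FPKM plus 1 over that of CK of the same hour) of the 16 members at 3 h and 24 h in PEG, NaCl, SA and ABA (points are genes, black bars are medians, dashed lines are the limits of the rule). All lie at or over 1.5 at 3 h and under 0.5 at 24 h, with medians at 24 h of -2.28, -0.25, -0.65 and -1.65.

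The change between 3 h and 24 h came from both sides of the ratio. The mean of CK 24 h was above that of CK 3 h in 16 of 16 members, by 0.58 to 6.11 on the log2 scale of FPKM plus 1 with a median of 2.24, and the libraries of the 2 groups did not overlap in 15 of 16, beside 22.4% of expressed genes. The difference was at least 1 in 14 members (87.5%). Among the 152 genes that met only the 3 h criterion it had a median of 0.42 and was at least 1 in 26.97%, and among all expressed genes the median was -0.04 and the share 3.48%. The rule divides by CK at both hours, so genes low in CK 3 h and high in CK 24 h were favoured by the choice, and the difference carries no test.

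In the treated groups the 24 h level minus the 3 h level had a median of -3.48 in PEG, -2.49 in SA, -1.84 in ABA and -0.88 in NaCl on the same log2 scale. It was lower by at least 1 in 14 members in PEG, 14 in SA, 12 in ABA and 7 in NaCl (87.5%, 87.5%, 75% and 43.75%). Among the 152 genes that met only the 3 h criterion the median was -2.05 in PEG, -0.65 in SA, -2.71 in ABA and 0.10 in NaCl, and the share lower by at least 1 was 80.9%, 35.5%, 90.1% and 21.7%. The lower level at 24 h was thus not particular to the members in PEG and ABA. In NaCl, 5 members had a mean at 24 h above that at 3 h. The libraries of 24 h all lay below those of 3 h in 15 members in PEG, 15 in SA, 12 in ABA and 11 in NaCl, beside 26.6%, 21.8%, 34.9% and 39.4% of expressed genes. Measured as a share of the change in relative level from 3 h to 24 h, the part due to CK had a median of 36.8% in PEG, 46.4% in SA, 57.7% in ABA and 68.4% in NaCl. It was larger than the part due to the treated group in 2 members in PEG, 5 in SA, 12 in ABA and 12 in NaCl. These values come from the group means that the rule used, apart from those of ABA 24 h, and are a description without a test.

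**Figure D3:**
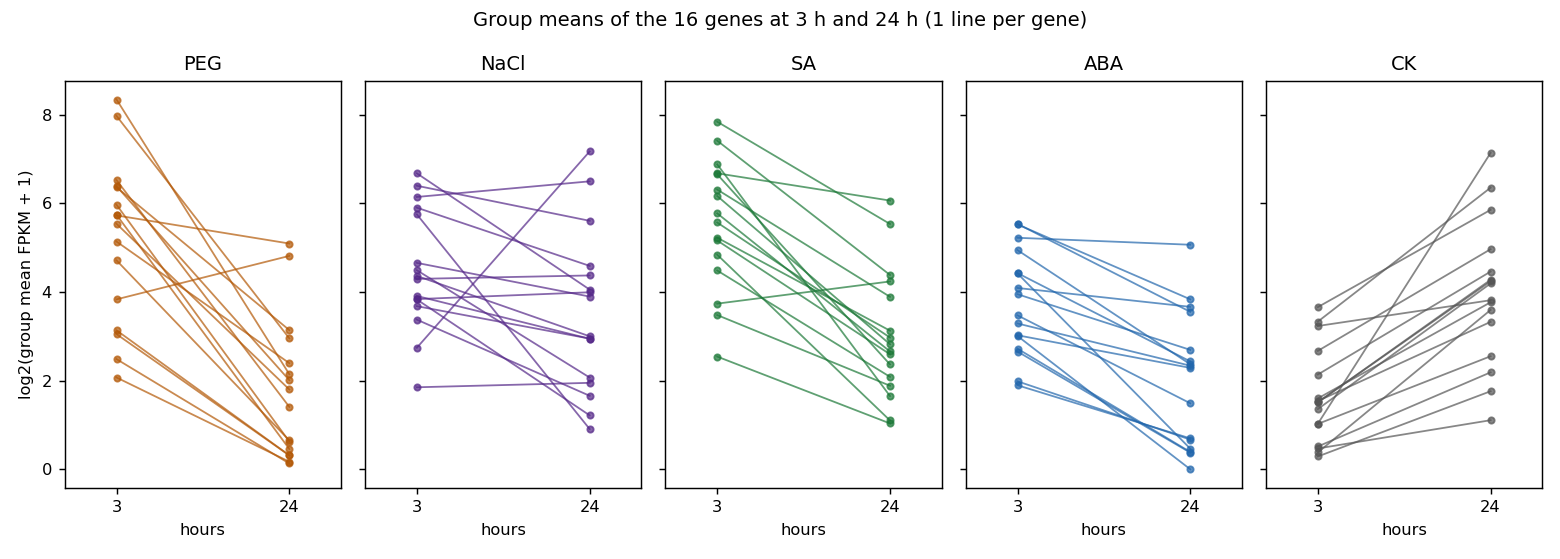
Log2 of the group mean FPKM plus 1 of the 16 members at 3 h and 24 h in PEG, NaCl, SA, ABA and CK (a line for each gene, 3 libraries a group). The lines fall in PEG and SA with the exception of PH02Gene08985, are mixed in NaCl, and rise in CK for all 16.

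Set against CK 3 h in place of CK 24 h, the 24 h levels did not all return to the control. The relative level on this footing had a median of -0.11 in PEG, 1.79 in NaCl, 1.21 in SA and 0.35 in ABA. Of the 16 members, 14 were under 0.5 in PEG, 1 in NaCl, 0 in SA and 9 in ABA. A value of 1.5 or more was still found in 2 members in PEG, 9 in NaCl, 5 in SA and 2 in ABA. All libraries of NaCl 24 h lay above all of CK 3 h in 15 members, and all libraries of SA 24 h in 15, beside 31.6% and 34.2% of expressed genes. By the limit of 0.5, most members were thus no longer clearly above CK 3 h at 24 h in PEG, but not in NaCl and SA. In ABA this held for 9 of 16, by the libraries labelled ABA 24 h. The values ran from -0.95 to 3.79 in PEG and from -0.86 to 1.73 in ABA. A member under the limit was therefore not always level with CK 3 h. Against CK 24 h, the PEG means lay well under the control rather than at it, and that relative levels in PEG, NaCl and SA stayed under 0.5 was set by the rule.

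The contrast of ABA 24 h with CK 24 h was not part of the rule, although CK 24 h was a denominator in it. All 16 members had a lower mean in ABA 24 h. In edgeR's test 12 of 16 were called lower and 0 higher (adjusted p under 0.05, 2-fold or more), beside 12.7% lower and 5.8% higher of the 39392 genes tested. With an unadjusted p under 0.05 the numbers were 14 lower and 0 higher, and DESeq2 called 13 lower and 0 higher. The log2 fold change had a median of -1.83 over the members and of -0.06 over all genes tested. All ABA 24 h libraries lay below all CK 24 h libraries in 15 members, beside 46% of expressed genes. Since genes high in CK 24 h were favoured by the choice, this count is not independent of the rule. With 0 h replicates 2 to 4 in the place of ABA 24 h, 14 members were called lower and 0 higher, beside 9.41% and 7.43% of genes.

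The change in ABA 24 h relative to CK 24 h was widest in PH02Gene08985 and PH02Gene42664. PH02Gene08985 had 0.129, 0.0639 and 0.946 FPKM in ABA 24 h, from 4, 2 and 29 counts, against 138, 151 and 129.6 FPKM in CK 24 h, with a log2 fold change of -8.21 ± 1.03 (SE, adjusted p = 6.98e-07, edgeR). PH02Gene42664 had 0.779, 0.914 and 0.0797 FPKM in ABA 24 h, against 12.9, 9.99 and 10.3 FPKM in CK 24 h, with a log2 fold change of -3.85 ± 0.43 (SE, adjusted p = 1.42e-07, edgeR). In both genes the groups were far apart. With 0 h replicates 2 to 4 in the place of ABA 24 h, the fold change of PH02Gene08985 was -1.65 on the log2 scale. Its size in ABA 24 h therefore rests on those libraries.

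The 4 members that were not called in ABA 24 h were named after their values were seen. PH02Gene09510 had a log2 fold change of -0.89 ± 0.27 (SE, adjusted p = 0.00935, edgeR), short of the 2-fold limit, which it passed without ABA 24 h replicate 2 (-1.23). Without ABA 24 h replicate 3 its log2 fold change was -0.53 with an adjusted p of 0.0845 in edgeR's test. PH02Gene46735 and PH02Gene17763 had log2 fold changes of -0.55 and -0.86 with adjusted p of 0.114 and 0.179 in edgeR's test. Phyllostachys_edulis_newGene_14677 had 0 counts in every ABA 24 h library and 39, 0 and 35 counts in CK 24 h, too uneven for a call (adjusted p = 0.0990, edgeR).

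Neither group of the contrast of ABA 24 h with 0 h was used by the rule, so it is the contrast least tied to the choice of members. In edgeR's test 8 members were called higher and 1 lower, beside 5.63% higher and 13.2% lower of all genes tested. The numbers with an unadjusted p under 0.05 were 9 and 2. The median log2 fold change was 0.75 over the members and -0.04 over all genes. The libraries of ABA 24 h lay above all 4 of 0 h in 8 members and below them in 0, beside 7.63% and 13.1% of expressed genes. Without 0 h replicate 1, the library that was close to ABA 24 h, 7 members were called higher and 1 lower, beside 12.6% and 16.8% of genes. In a fit of these 2 groups alone 0 were called higher and 0 lower, and DESeq2 called 8 higher and 2 lower.

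Among the members that were higher in ABA 24 h than at 0 h, PH02Gene03360 and PH02Gene17763 changed most. PH02Gene03360 had 6.84, 2.23 and 2.57 FPKM in ABA 24 h, against 0.840, 0.403, 0.00 and 0.0796 FPKM at 0 h, a log2 fold change of 3.69 ± 0.51 (SE, adjusted p = 5.45e-06, edgeR). PH02Gene17763 had 5.97, 3.78 and 2.39 FPKM in ABA 24 h, against 1.21, 0.00, 0.0361 and 0.166 FPKM at 0 h, a log2 fold change of 3.67 ± 0.56 (SE, adjusted p = 1.74e-05, edgeR). In both genes 0 h replicate 1 was the highest of the 0 h libraries but still below all ABA 24 h libraries. Without it the log2 fold changes were 4.80 in PH02Gene03360 and 6.03 in PH02Gene17763. PH02Gene23966 was called higher at 1.05 ± 0.17 (SE, adjusted p = 3.06e-05, edgeR), and fell short of the 2-fold limit when 0 h replicate 1 (0.99) or ABA 24 h replicate 2 (0.83) was left out. The member called lower was PH02Gene08985, at -6.15 ± 0.97 (SE, adjusted p = 2.36e-05, edgeR).

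**Figure D4:**
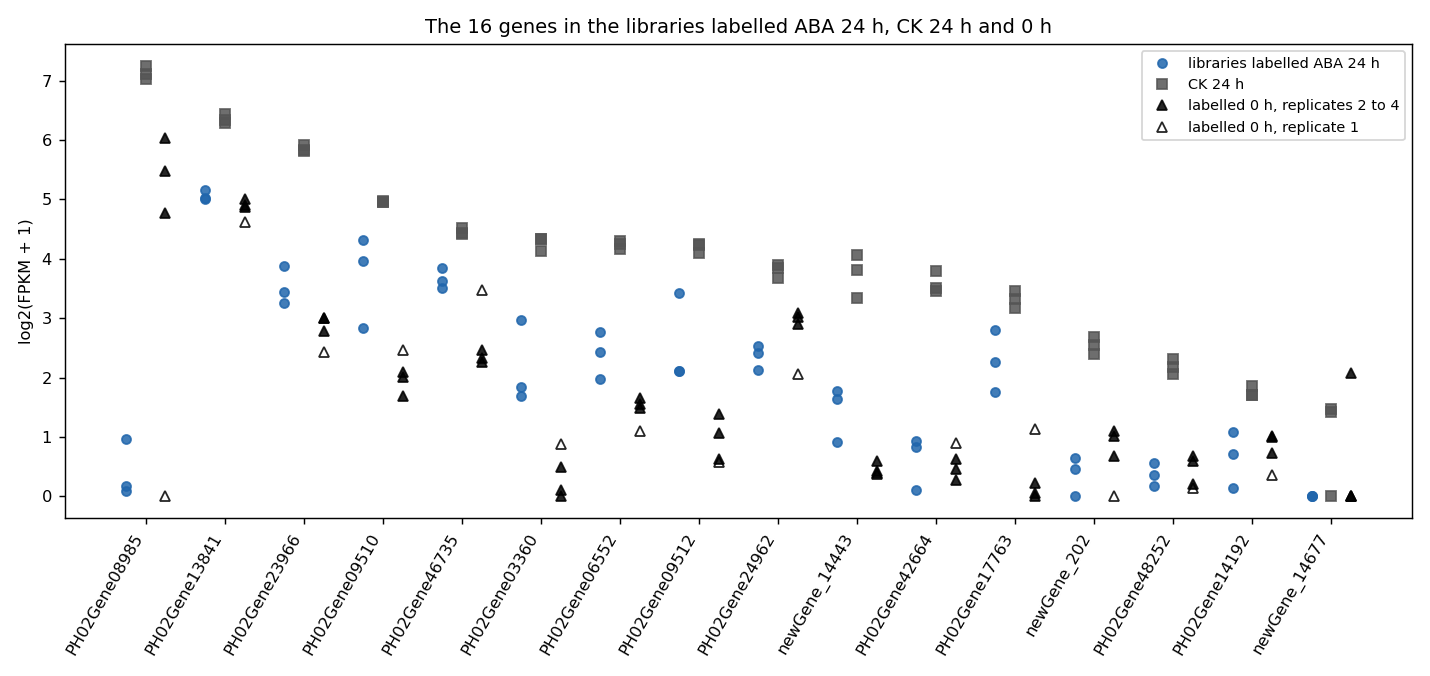
Log2 of FPKM plus 1 of the 16 members in the libraries of ABA 24 h, CK 24 h and 0 h (points are libraries, 0 h replicate 1 drawn open). The ABA 24 h libraries lie below all CK 24 h libraries in 15 of 16 members and above all 0 h libraries in 8 of 16.

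The 0 h libraries give a second control for the 3 h levels, which the rule did not use. The rule did use the treated libraries and kept genes that were high in them. The counts in this paragraph are therefore not independent of the choice. Called higher in edgeR's test were 15 members under PEG, 15 under NaCl, 15 under SA and 13 under ABA, beside 12.9%, 12.2%, 15.5% and 10.1% of all genes tested. Called lower were 0 in PEG, 1 in NaCl, 0 in SA and 0 in ABA, beside 14.8%, 14%, 17.1% and 13.5%. With an unadjusted p under 0.05, 15 members were higher in each treatment and the numbers lower were 0, 1, 0 and 0. The median log2 fold change was 4.83 in PEG, 3.99 in NaCl, 5.41 in SA and 3.07 in ABA, and over all genes it was between -0.12 and -0.07. All treated libraries lay above all 0 h libraries in 15 members in each treatment, beside 17.3% for PEG, 29.5% for NaCl, 22.4% for SA and 17.4% for ABA. The member outside these counts was PH02Gene08985 in every treatment. At ABA 3 h the other members not called were PH02Gene13841, at 0.38, and Phyllostachys_edulis_newGene_14677, at 3.15 on the log2 scale. Set against the libraries labelled ABA 24 h, 15, 14, 16 and 12 members were called higher in PEG, NaCl, SA and ABA, beside 19.4%, 20.5%, 21.5% and 17.5% of genes. Called lower were 0 in each, beside 15.3%, 17%, 17.8% and 14.9%.

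PH02Gene08985 differed from the other members in its levels at 0 h and in its change between 3 h and 24 h in PEG and SA, while it was lower in ABA 24 h than in ABA 3 h and CK 24 h as they were. PH02Gene08985 had 14.3, 11.5 and 13.9 FPKM in PEG 3 h, 7.39, 2.15 and 7.51 in NaCl 3 h, 12.5, 11.8 and 12.6 in SA 3 h, with 18.3, 17.3 and 25.4 in ABA 3 h, against 1.03, 0.999 and 1.08 in CK 3 h. At 24 h it had 28.7, 26.04 and 26.6 FPKM in PEG, 144, 135 and 149.7 in NaCl, and 16.3, 17.8 and 19.4 in SA, against 138, 151 and 129.6 in CK. At 0 h it had 0.00, 26.2, 43.4 and 64.6 FPKM, the first value being that of replicate 1, which held 0 counts. The gene was thus lowest in ABA 24 h, CK 3 h and 0 h replicate 1, and its mean at 24 h was above that at 3 h in PEG, NaCl and SA by 0.98, 4.43 and 0.50 on the log2 scale. It was the member with the widest change in CK, 6.11 on the log2 scale or a ratio of 135.

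Against 0 h, PH02Gene08985 was lower in NaCl 3 h, at a log2 fold change of -2.57 ± 0.72 (SE, adjusted p = 0.00456, edgeR). In PEG, SA and ABA at 3 h its log2 fold changes were -0.999, -1.14 and -0.65 and were not called. Without 0 h replicate 1 it was called lower in PEG, NaCl, SA and ABA, at -1.41, -2.97, -1.55 and -1.06, and when set against the libraries labelled ABA 24 h it was called higher in all 4, at 5.16, 3.60, 5.02 and 5.51. The direction of its 3 h levels therefore depended on which of these libraries they were set against. Without PH02Gene08985, the other 15 members had a median change in CK of 2.19, and in PEG, SA and ABA the 24 h mean was below the 3 h mean in 15 of 15.

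The members' levels at 3 h were compared between the treatments. By group mean FPKM, SA 3 h was the highest in 9 members, PEG 3 h in 3, NaCl 3 h in 3 and ABA 3 h in 1, and ABA 3 h was the lowest in 12, NaCl 3 h in 3, PEG 3 h in 1 and SA 3 h in 0. In SA 3 h against ABA 3 h, edgeR called 14 members higher and 0 lower, beside 17.3% and 15.5% of all genes tested, with a median log2 fold change of 2.16 over the members and 0.01 over all genes. In PEG 3 h against ABA 3 h, it called 10 higher and 0 lower, beside 10.2% and 7.54%, with a median of 1.72. In NaCl 3 h against PEG 3 h, it called 1 higher and 8 lower, beside 7.92% and 7.75%, with a median of -1.40. The unadjusted p was under 0.05 in 14, 11 and 1 members higher and in 0, 0 and 9 lower for these 3 comparisons. All 4 groups of libraries were used by the rule, which set a lower limit in each but did not set their order, so the counts are not independent of the choice. The 152 genes that met only the 3 h criterion likewise had their lowest median relative level in ABA, at 2.16, against 2.78 in PEG, 2.83 in NaCl and 2.98 in SA.

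The span between SA and ABA was widest in PH02Gene42664, a gene named above for its change in ABA 24 h. It had 112, 121 and 116 FPKM in SA 3 h, against 3.09, 3.87 and 1.91 FPKM in ABA 3 h, a log2 fold change of 5.51 ± 0.41 (SE, adjusted p = 7.64e-12, edgeR). In PEG 3 h it had 48.7, 58.3 and 50.3 FPKM and in NaCl 3 h 12.3, 8.98 and 6.85, and the 4 treatments did not overlap. PH02Gene09510 ran differently, with PEG 3 h above SA 3 h and NaCl 3 h below PEG 3 h by -2.82 ± 0.28 on the log2 scale (SE, adjusted p = 9.36e-09, edgeR). The member called higher in NaCl than in PEG was PH02Gene48252, named after its values were seen, with 14.8, 11.4 and 13.4 FPKM in NaCl 3 h, against 5.10, 3.97 and 4.72 FPKM in PEG 3 h. Its log2 fold change was 1.16 ± 0.36 (SE, adjusted p = 0.0132, edgeR). Without PEG 3 h replicate 2 or without NaCl 3 h replicate 1, 0 members were called higher in NaCl than in PEG.

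Phyllostachys_edulis_newGene_14677, singled out after its values were seen, was the sparsest member. It had 0 counts in 14 of 34 libraries. At 3 h it had 7.67, 9.52 and 6.14 FPKM in PEG, 84.9, 45.7 and 27.7 in NaCl, 25.1, 39.6 and 18.1 in SA, and 6.34, 6.61 and 8.15 in ABA, against 1.15, 0.00 and 0.00 in CK. At 24 h it had 0.731, 0.00 and 0.00 FPKM in PEG, 2.46, 0.00 and 0.173 in NaCl, 3.44, 0.00 and 0.00 in SA, and 0.00 in all 3 libraries of ABA, against 1.79, 0.00 and 1.68 in CK. All 12 treated libraries of 3 h held counts of this gene, while in the other groups at most 2 libraries did.

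The members had little else in common that the tables show. Relative transcript length, the counts per FPKM of a gene set against the median gene, was 0.14 to 4.55 with a median of 0.90, beside a median of 1.01 over expressed genes. The 4.55 was that of Phyllostachys_edulis_newGene_14443, whose counts did not follow its FPKM. It had 5530 counts at 14.7 FPKM in NaCl 3 h replicate 1 and 3441 counts at 22.5 FPKM in PEG 3 h replicate 2. Its value is therefore not a fixed length. At 0 h most members were low, with a median of the group means of 0.871 FPKM, beside 4.67 FPKM over expressed genes. The means of the members ran from 0.331 to 33.5 FPKM with an upper quartile of 5.71 FPKM, so some were above that median. CK 24 h was above 0 h in 16 of 16 members, by 0.26 to 3.86 on the log2 scale of FPKM plus 1 (median 2.40). All libraries of CK 24 h lay above all of 0 h in 15 members, beside 20.4% of expressed genes. Genes high in CK 24 h were favoured by the choice, so these counts are not independent of the rule. Among the 152 genes that met only the 3 h criterion, CK 24 h was above 0 h in 70 and below it in 82 (median -0.07). CK 3 h was above 0 h by the mean in 10 members and below it in 6, with a median of 0.17. Without 0 h replicate 1, the median of the 0 h means was 1.08 FPKM, CK 24 h was above 0 h in 16 of 16 with a median of 2.39, and CK 3 h was above 0 h in 9 and below it in 7 with a median of 0.04.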

How the data were processed

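Young leaves of moso bamboo seedlings were profiled by RNA sequencing in 34 libraries, grouped by their labels. The authors deposited raw read counts per gene and FPKM values for 59091 genes. The submitters' processing notes name HISAT2 and DESeq2. The counter, genome build and strand setting were not given in the sources used here.

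The members and lists were chosen with earlier results of these data known. Members were found from group means of FPKM with a pseudocount of 1. The rule allowed up to 300 genes and dropped genes that the study's own lists contain, of which 0 were among the 16 found. Counts were tested with edgeR 4.0.16 in R 4.3.3 by the quasi-likelihood test in 1 fit of all libraries, with 11 group means. TMM normalization and filterByExpr were used, which left 39392 genes, all 16 members among them. P-values were adjusted over all genes by the Benjamini-Hochberg method. Calls needed an adjusted p under 0.05 together with a 2-fold change. Standard errors were approximated by dividing the absolute log2 fold change by the square root of F. Fold changes against a group at 0 counts depend on the prior count and are no bound. The procedure was tried on simulated counts for 1 contrast only, with the same spread in all genes. That simulation did not cover the mixed 0 h group or changes in genes with few counts.

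Shares of expressed genes refer to the 32792 genes with a group mean of at least 1 FPKM. Named genes are the 2 members with the highest lowest relative level at 3 h, the 2 with the highest mean over the treated libraries of 3 h, and those with the largest changes in ABA 24 h. Others are named as chosen after their values were seen. Alternatives were other normalizations (RLE size factors), no filter, DESeq2 1.42.0, the 2 compared groups alone, a replicate block, each replicate left out, and, for the rule, pseudocounts of 0.1 and 2 FPKM and TMM-normalized CPM. The exchange of libraries labelled 0 h and ABA 24 h was chosen after seeing the data. No 2 libraries were identical. Tables were handled with Python 3.11.15 and pandas 2.3.3.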

Additional observations from a re-analysis of the deposited data

Results flagged for a closer look

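In the 0 h group, the only one with 4 libraries, the FPKM of each of the 16 members was tested by the ratio of gap to range (Dixon's test), and in 3 members 1 library stood apart from the others. Chance gives about 1 such case in 20 groups for normally distributed values. FPKM near 0 need not follow that rate, so the cases are given as a description. Phyllostachys_edulis_newGene_14677 had 3.22 FPKM in 0 h replicate 4 and 0 in the other 0 h libraries. PH02Gene46735 had 10.1 FPKM in 0 h replicate 1, against 3.81 to 4.49 FPKM in the others. PH02Gene17763 had 1.21 FPKM in 0 h replicate 1, against 0 to 0.166 FPKM in the others.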

How the results depend on the processing

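The choice of members depended on the pseudocount: 47 genes met the rule at 0.1 FPKM, the 16 among them, and 9 did at 2 FPKM, all 9 from the 16. With TMM-normalized CPM in place of FPKM 23 genes met it, 13 of them shared, and leaving out 1 library gave 15 to 19. Requiring ABA 24 h as well left the 16. Numbers of members called under all other settings were within 1.5 times the values above, apart from these. In ABA 24 h against 0 h, the 2 groups alone gave 0 higher and 0 lower, with adjusted p of 0.0971 to 0.122 (edgeR) for the named genes, and DESeq2 gave 2 lower. Against 0 h at 3 h, 1 member (PH02Gene08985) was lower in PEG, SA and ABA without 0 h replicate 1, and in NaCl the number lower was 0 in the fit of 2 groups and 0 against the libraries labelled ABA 24 h. In NaCl 3 h against PEG 3 h, 2 were higher in the fit of 2 groups and 0 to 1 when a replicate was left out. PH02Gene42664 in ABA 24 h against 0 h was not called and changed sign to -0.030 without ABA 24 h replicate 2, within -0.030 to 0.91 over the libraries left out.

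Leaving out each replicate gave, for members lower in ABA 24 h than CK 24 h, 11 to 12, and for members higher in ABA 24 h than 0 h, 7 to 8. At 3 h against 0 h the numbers higher were 14 to 15 in PEG, 14 to 15 in NaCl, 15 in SA and 13 to 14 in ABA, and the numbers lower were 0 to 1 in PEG, SA and ABA and 1 in NaCl. Between treatments at 3 h, SA against ABA gave 12 to 14 higher.

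The replicate numbers are in the labels, but same-numbered libraries did not deviate together: over 165 pairs the correlation of deviations was -0.17 to 0.13 with a median of -0.01, and 3 pairs exceeded 0.1. A fit with the number as a block gave 13 members lower in ABA 24 h than CK 24 h, 8 higher and 1 lower in ABA 24 h than 0 h, and 14 higher in ABA 3 h than 0 h. Precision is limited by 3 libraries a group, by the mixed 0 h group, and by low counts in Phyllostachys_edulis_newGene_14677.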
